A study of Mus musculus with 8 samples.

Results

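The microRNAs (miRNAs) miR-143 and miR-145a were measured in vesicles of the exosome fraction of mouse amniotic fluid, small membrane-bound particles shed by cells. The members were taken by name from the array annotation as both arms of the 2 hairpins: mmu-miR-143-3p, mmu-miR-143-5p, mmu-miR-145a-5p and mmu-miR-145a-3p. These are 4 of the 1881 mouse miRNAs on the array, and 10 probes read them. Of the 4, 2 were measured above background and entered the test, out of 470 miRNAs tested in all. Each of the 8 samples was read on its own single-colour Agilent array. The LPS group (n = 4) came from mice in preterm birth after an injection into the abdomen of 100 μg/kg lipopolysaccharide (LPS, a bacterial cell wall component that sets off inflammation) on day 14 of pregnancy. Preterm birth followed after about 48 h, and the fluid was taken from embryos whose waters had not broken. The control group (n = 4) came from cesarean sections, and the labels do not say whether those mice were injected. All samples carry the label day 17, although an injection on day 14 and birth about 48 h later would fall before it. Whether the groups were matched in stage is not clear from the labels, so stage and treatment may not be separable. The sources used here name no strain, no maternal age and no number of animals behind a sample. The p-values below therefore measure the spread between these samples, which may be partly technical.

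A miRNA is a short RNA cut from a hairpin, and it lowers the output of mRNAs that pair with it. One arm of the hairpin usually persists as the guide strand, while the other, the passenger strand, is mostly degraded. miR-143 and miR-145 are made from a shared primary transcript and are best known from smooth muscle, where serum response factor and myocardin switch them on and where they favour the contractile over the proliferating state. They are also found in fibroblasts and other mesenchymal cells, so their presence in a fluid does not name a cell of origin.

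The cluster lies on mouse chromosome 18, where the annotation of the files (build mm9) places both miR-143-3p probes within 61808895 to 61808909 and both miR-143-5p probes within 61808862 to 61808875. The miR-145a-5p probes lie within 61807494 to 61807507 and the miR-145a-3p probes within 61807526 to 61807546. Between the miR-143 and the miR-145a probes are 1315 bases. In the RefSeq gene table (GRCm38.p6), both miRNA genes lie inside the span of Carmn, a long noncoding RNA gene also named Mir143hg. The relative miR-145b, from a gene of its own on that chromosome, has 2 probes with no position in the files and was not well above background on any array.

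The guide strands were present on every array, and the passenger strands gave no signal beyond that of negative control probes. For miR-143-3p, all 234 spots kept over the 8 arrays were well above background by the scanner software. Its probe means ran from 33.4 to 219 units of linear, unscaled signal, against negative control probes with an SD of 1.74 to 2.15 on an array. The dimmer guide strand, miR-145a-5p, had 176 of 237 spots well above background (74.3%). Its brighter probe, with signals from 13.0 to 51.1, was well above background on 8 of 8 arrays, but on cesarean replicates 3 and 4 by only 8 of 15 spots each. Its dimmer probe was well above background on 4 of the 8 arrays. Of the passenger strands, miR-143-5p had 0 of 231 spots and miR-145a-3p 0 of 226 spots well above background. All 16 probe means of miR-143-5p and all 32 of miR-145a-3p lay within 2 SD of the mean of the negative controls of their array. Neither passenger strand entered the test, and the ratio of the arms of a hairpin was not formed, since only 1 side of it was measured. Repeated spots of a miR-143-3p probe varied by 3.30% to 22.8% (coefficient of variation), with the highest value on LPS replicate 1. Where a miR-145a-5p probe had any spot well above background, the highest was 26.8%, for its dimmer probe on LPS replicate 4.

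**Figure D1:**
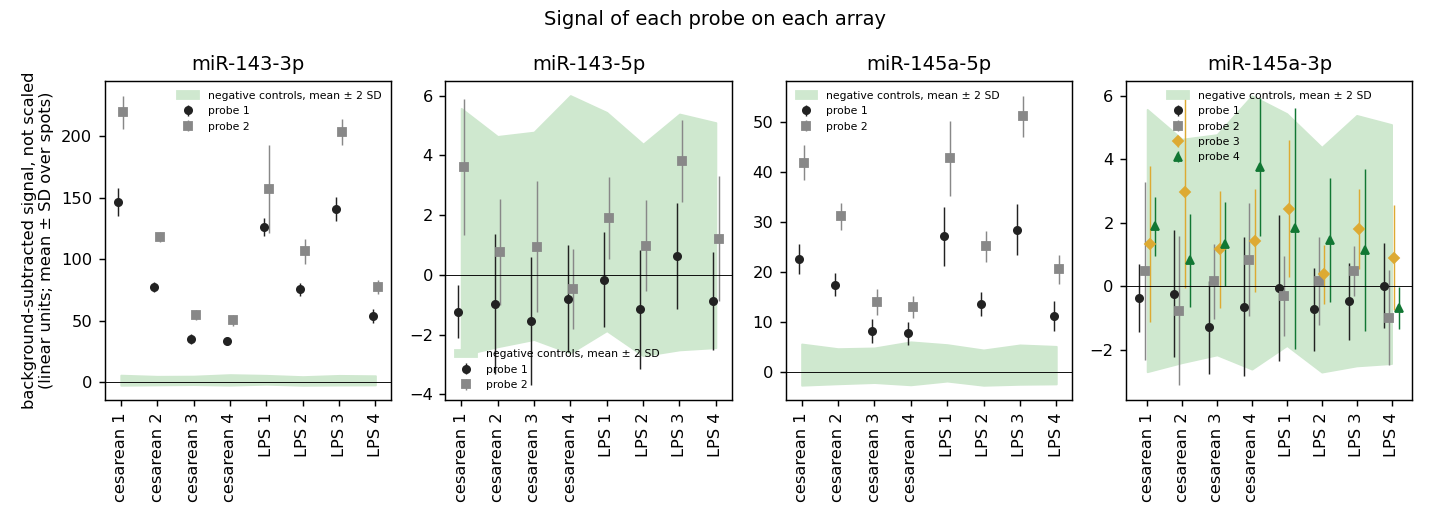
Linear, background-subtracted signal before scaling (y axis) of every probe of the 4 miRNAs on each array (x axis), as the mean ± SD over its spots, numbered by increasing probe length. The green band is the mean ± 2 SD of negative control spots. All guide strand means stand above the band, closest to it for miR-145a-5p on cesarean replicates 3 and 4, and all passenger strand means lie inside it.

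To compare the groups, signals were divided by the 75th percentile over probes detected on all arrays, because overall brightness differed between arrays within both groups (211 to 407 units on LPS and 214 to 448 on cesarean arrays). Values below are log2 of this scaled signal of the brighter probe of a miRNA, with a floor of 3.54. Probes differ in how brightly they read an RNA, so the level of a miRNA was not set against that of another as an abundance. For mmu-miR-143-3p, the cesarean arrays read 6.89, 6.36, 5.95 and 5.75, and the LPS arrays 7.38, 6.65, 6.92 and 6.47, in the order of replicates 1 to 4. Here 2 of the 4 LPS arrays lay above every cesarean array, while cesarean replicate 1 lay above LPS replicates 2 and 4. For mmu-miR-145a-5p, the cesarean arrays read 4.50, 4.43, 3.99 and 3.80 and the LPS arrays 5.51, 4.57, 4.93 and 4.56. All 4 LPS arrays lay above all 4 cesarean arrays, by a gap of 0.05 between the lowest LPS and the highest cesarean array. In the authors' deposited value table, whose normalized log2 values differ in scale, the groups overlapped for miR-145a-5p too: the lowest LPS array stood at 4.04, the highest cesarean array at 4.14, and 2 of the 4 LPS arrays above every cesarean array. LPS replicate 1 was the highest array for both miRNAs, and cesarean replicate 4 the lowest.

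Both guide strands had higher means with LPS, and neither passed the test over all miRNAs. The mean of miR-143-3p was 6.24 ± 0.51 on cesarean and 6.86 ± 0.40 on LPS arrays (SD, n = 4 each). This is a log2 difference of 0.62 ± 0.31 (SE), or 1.54-fold, with a limma adjusted p of 0.242 (Benjamini-Hochberg over 470 miRNAs) and an unadjusted 95% interval of -0.07 to 1.31. For miR-145a-5p, the mean was 4.18 ± 0.34 on cesarean and 4.89 ± 0.45 on LPS arrays (SD, n = 4 each), and LPS exceeded cesarean by 0.71 ± 0.29 (log2, SE), or 1.63-fold. Its limma adjusted p was 0.166, its unadjusted p 0.0332 and its unadjusted 95% interval 0.07 to 1.35. By p-value, miR-145a-5p ranked 94 and miR-143-3p 144 among the 470. As background, 4.89% of all tested miRNAs passed an adjusted p of 0.05 in either direction, 13.8% were higher with LPS at an unadjusted p of 0.05, and 9.79% were higher without overlap of the groups. Of the 2 tested members, 0 were in the first set, and miR-145a-5p alone was in both others. It did not keep these places throughout: its unadjusted p lay above 0.05 under 14 of 26 alternative settings, among them no scaling (0.266), the slide column as a block (0.0538) and the deposited value table (0.0523), where the groups also overlapped. Without LPS replicate 1 the differences were 0.42 for miR-143-3p and 0.48 for miR-145a-5p, and with scaling to the spike-in probes they were 0.49 ± 0.52 and 0.58 ± 0.50 (SE). All LPS arrays lay in slide row 1 and all cesarean arrays in slide row 2, so slide row and treatment cannot be told apart.

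**Figure D2:**
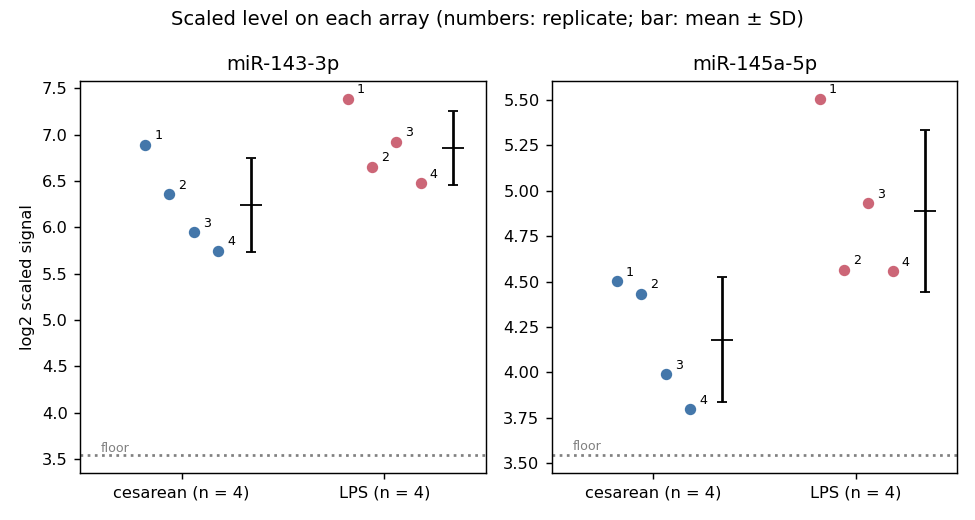
Log2 scaled signal (y axis) of miR-143-3p and miR-145a-5p on the 4 cesarean and 4 LPS arrays. Points are arrays with their replicate number, bars the mean ± SD, and the dotted line the floor of 3.54. The groups overlap for miR-143-3p and are 0.05 apart for miR-145a-5p.

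Each probe was also fitted on its own. The brighter and the dimmer probe of miR-143-3p gave log2 differences of 0.62 and 0.75, both higher with LPS. The dimmer miR-145a-5p probe did not pass the filter for detection and, used in place of the brighter one, gave 0.50, a value compressed by the floor on cesarean replicates 3 and 4. Both probes drew on one labelled sample per array and are no independent replicates. In the authors' deposited value table, which holds normalized log2 values, the limma differences were 0.69 for miR-143-3p (adjusted p = 0.260) and 0.81 for miR-145a-5p (adjusted p = 0.205).

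The 2 guide strands varied together from array to array. Over the 8 arrays their log2 levels had a Pearson correlation of 0.95, and of 0.93 once each group's mean was taken away. Among the 337 other miRNAs well above background on all 8 arrays, each of the pair was the closest match of the other. These points share the scaling of their array and, for a pair chosen as a cluster, the coefficient is a description. The within-array log2 ratio of miR-145a-5p to miR-143-3p, on which scaling has no bearing, was -1.93, -1.96 and -1.95 on cesarean replicates 2, 3 and 4 but -2.39 on replicate 1. On LPS replicates 1 to 4 it was -1.88, -2.08, -1.99 and -1.91, within the range of the cesarean arrays except for replicates 1 and 4 just above it. The group means were -2.06 ± 0.22 and -1.97 ± 0.09 (SD, n = 4 each), a difference of 0.09, no larger than the SD within either group (exact permutation test over 70 allocations, two-sided, p = 0.600). The smallest p this design allows is 0.0286. Without cesarean replicate 1 that difference was -0.022, and it also turned sign with other probes and a higher floor, as given in the closing section.

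**Figure D3:**
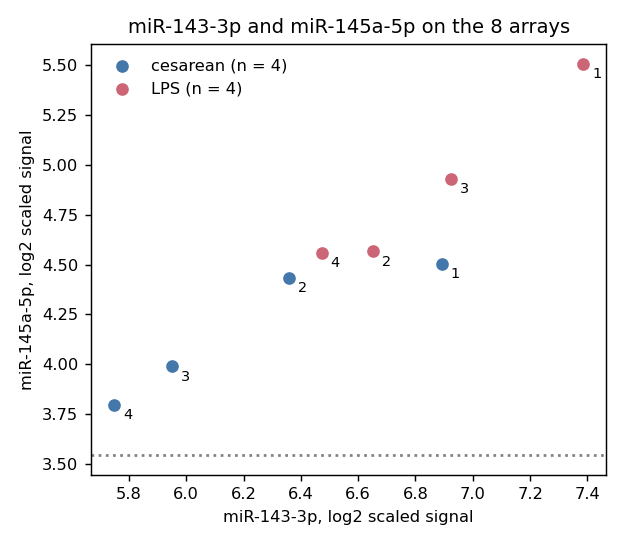
Log2 scaled signal of miR-145a-5p (y axis) against miR-143-3p (x axis) on the 8 arrays, labelled by replicate and coloured by group. The dotted line is the floor. The arrays line up along a rising diagonal (Pearson r = 0.95), from cesarean replicate 4 to LPS replicate 1, with cesarean replicate 1 below it.

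Of the miRNAs outside the cluster, the 2 with the most similar pattern over the 8 arrays were the same for both guide strands. Because the guide strands themselves correlated at 0.95 over these arrays, a shared match is no independent second observation. Out of 336 miRNAs ranked, miR-146a-5p, a brake on NF-κB signalling, came first (r = 0.88 with miR-143-3p and 0.90 with miR-145a-5p), followed by miR-26b-5p (r = 0.78 and 0.88). Both were higher with LPS by 0.79 ± 0.26 and 0.50 ± 0.23 (log2, SE), and neither passed the test (limma adjusted p = 0.0903 and 0.208). Next came let-7i-5p, miR-155-5p and let-7c-5p for miR-143-3p, with r from 0.72 to 0.73. For miR-145a-5p they were miR-200b-3p, let-7g-5p and miR-203-3p, with r from 0.80 to 0.81. The median r over all ranked miRNAs was -0.13 for miR-143-3p and -0.12 for miR-145a-5p. With group means removed, the matches of miR-143-3p stood at 0.82 for miR-146a-5p, 0.73 for let-7c-5p, 0.60 for miR-26b-5p, 0.50 for let-7i-5p and 0.47 for miR-155-5p. Those of miR-145a-5p stood at 0.77 for miR-146a-5p, 0.73 for miR-26b-5p, 0.71 for miR-203-3p, 0.59 for let-7g-5p and 0.55 for miR-200b-3p. The immune cell miRNA miR-155-5p differed between the groups by 1.09 ± 0.24 (SE, limma adjusted p = 0.0329), and let-7c-5p by 0.11 ± 0.23 (adjusted p = 0.822). No miRNA was called higher without scaling, with spike-in scaling or with the slide column as a block. The call of miR-155-5p and those of the miR-200 family, miR-144-3p and miR-142a-3p below are therefore lost there.

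To see the cluster beside other miRNAs of its pathway, a list of 20 miRNAs tied to the state of smooth muscle was used, made up of contractile-state miRNAs and of miRNAs active in proliferating or inflamed smooth muscle. Of its 20 members 11 were tested, 0 passed in either direction, and 4 were higher and 0 lower at an unadjusted p of 0.05 (13.8% and 11.1% of all tested miRNAs). All 11 had a difference above 0, under each of the 5 scalings tried, as did 214 of all 470 tested miRNAs under the main scaling. The median of the 11 was 0.62, which is the value of miR-143-3p itself, and that of the 9 members outside the cluster was 0.36, against -0.06 over all tested miRNAs. Besides miR-145a-5p, the 4 were miR-146a-5p, miR-26a-5p (0.69 ± 0.22 SE, limma adjusted p = 0.0812), which acts on SMAD signalling, and miR-222-3p (0.78 ± 0.27, adjusted p = 0.104), which favours smooth muscle proliferation. Of these, miR-222-3p was well above background on 6 of the 8 arrays. It lay at the floor on cesarean replicates 1 and 3 and read 3.70 and 3.86 on replicates 2 and 4. The proliferation-linked miR-21a-5p and miR-31-5p had differences of 0.36 ± 0.29 and 0.72 ± 0.36, and miR-221-3p, the partner of miR-222-3p, one of 0.20 ± 0.29. miR-1a-3p (0.29 ± 0.69) and miR-133a-3p (0.23 ± 0.75), which smooth muscle shares with heart and skeletal muscle, varied widely between LPS arrays, with SDs of 1.56 and 1.73. The smooth muscle miRNAs miR-490-3p and miR-490-5p were well above background on 0 of the 8 arrays.

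The mesenchymal miRNAs, which fibroblasts and smooth muscle also express, had differences on the other side of 0. All 8 tested members were lower in mean with LPS under each of the 5 scalings, while 214 of all 470 tested miRNAs were higher under the main one. The median of the 8 was -0.91 under the main scaling. Under the 5 it ran from -1.06 (no scaling) to -0.81 (percentile over all probes). One of them, miR-214-5p, was at the floor on every LPS array and entered the test only through the cesarean arrays, which fixes its sign; the median of the other 7 was -0.95. None passed over all miRNAs, and 5 of 8 were lower at an unadjusted p of 0.05, against 11.1% of all tested. Among them were miR-214-3p (-1.34 ± 0.37 SE, limma adjusted p = 0.0640), miR-199a-5p (-1.03 ± 0.28, adjusted p = 0.0640), miR-125b-5p (-0.95 ± 0.29, adjusted p = 0.0769) and miR-199a-3p (-0.98 ± 0.32, adjusted p = 0.0903). Smaller differences, not under that unadjusted p, were those of miR-100-5p (-0.43 ± 0.27), miR-214-5p (-0.34 ± 0.26) and miR-99a-5p (-0.14 ± 0.26). In the epithelial list, 6 of 7 tested members had a difference above 0, and miR-205-5p one of -0.17 ± 0.64. Of the 7, 3 passed with limma, against 4.89% of all miRNAs: miR-200c-3p (1.42), miR-200a-3p (1.23) and miR-200b-3p (1.08). The endothelial miR-126a-3p differed by -0.09 ± 0.30. The striated muscle list had 4 tested members with a median of 0.26 and 0 that passed. In the erythroid list 1 of 3 tested members passed, miR-144-3p, which was at the floor on every cesarean array and entered the test only through the LPS arrays. In the leukocyte list miR-142a-3p passed, 1 of 3 tested, while miR-223-3p differed by 0.09 ± 0.25 and miR-342-3p by -0.45 ± 0.30 (SE). The part of any of these cell types in the levels of miR-143-3p and miR-145a-5p was not tested.

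**Figure D4:**
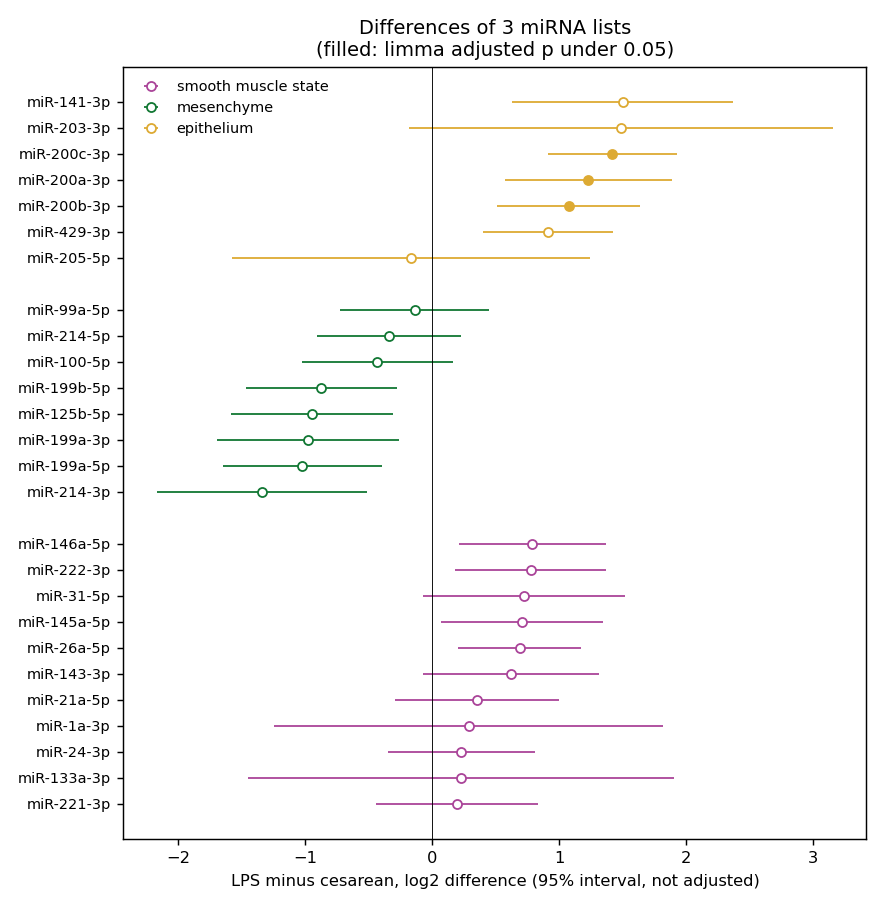
LPS minus cesarean log2 difference with its unadjusted 95% interval (x axis) for each tested miRNA of the smooth muscle, mesenchymal and epithelial lists (y axis). Filled points passed a limma adjusted p of 0.05, which 3 epithelial and no smooth muscle or mesenchymal miRNAs did. miR-143-3p and miR-145a-5p lie right of 0 and all mesenchymal miRNAs left of it.

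Separate group differences are not a test of each other. Each guide strand was therefore set against 1 miRNA from each of 3 other lists within the array. These 6 comparisons were chosen with the differences known. The comparison miRNAs with a sequence shown, the mesenchymal miR-199a-3p and the epithelial miR-200c-3p, and the closest matches miR-146a-5p and miR-26b-5p, have different seeds, the bases 2 to 8 in capitals that choose a miRNA's targets. The mature sequences are from RefSeq (GRCm38.p6), 5′ to 3′.
miR-199a-3p: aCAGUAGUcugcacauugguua
miR-200c-3p: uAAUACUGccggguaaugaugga
miR-146a-5p: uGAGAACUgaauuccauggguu
miR-26b-5p: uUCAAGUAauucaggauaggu

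The log2 ratio of miR-143-3p to miR-199a-3p was -3.03, -4.31, -3.50 and -4.39 on cesarean replicates 1 to 4, and -2.12, -2.14, -2.45 and -2.10 on LPS replicates 1 to 4. All LPS arrays lay above all cesarean arrays, and the means differed by 1.60 (exact permutation test, two-sided, p = 0.0286, the smallest possible, and 0.0857 adjusted over the 6 comparisons). For miR-145a-5p against miR-199a-3p the ratio ran from -6.34 to -5.41 on cesarean and from -4.45 to -4.00 on LPS arrays, a difference of 1.69 with the same exact p-values. The own log2 difference of miR-199a-3p, -0.98, is part of both values and was known when it was chosen. These p-values therefore describe the ratios and are no separate support for a change of the cluster. A design of 4 against 4 arrays cannot give an adjusted p under 0.05 here unless more of the 6 comparisons reach the smallest p. Against miR-200c-3p the ratios were lower with LPS by a log2 difference of -0.80 for miR-143-3p and -0.71 for miR-145a-5p (exact p = 0.0571 and adjusted p = 0.0857 for both). Here miR-200c-3p was itself higher with LPS by 1.42, which was also known beforehand. Against the striated muscle miR-133a-3p the differences of 0.39 and 0.48 were within the spread (exact p = 0.686 and 0.571).

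The scanner software also gives a total signal per miRNA, and for miR-145a-5p this total departed from its probes. On 6 arrays the total equalled the sum of its 2 probe totals. On cesarean replicates 3 and 4 it stood at 30.2 and 27.7, which is 4.69 and 4.68 times the sums of 6.43 and 5.93. These are the arrays where the probes were dimmest and where 0 of 15 spots of the dimmer probe were well above background. With these totals, miR-145a-5p was lower with LPS by a log2 difference of -0.41 ± 0.45 (SE, limma adjusted p = 0.678), and with the sums in their place it was higher by 0.76 ± 0.31 (adjusted p = 0.172). The software totals for miR-143-3p equalled the sums on all 8 arrays, with a difference of 0.67 ± 0.36 (adjusted p = 0.346). Over the miRNAs the software called detected, between 90 and 140 per array had a total over 2 times the sum of their probes, out of 466 to 634. How the software forms this total is not stated in the sources used here.

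**Figure D5:**
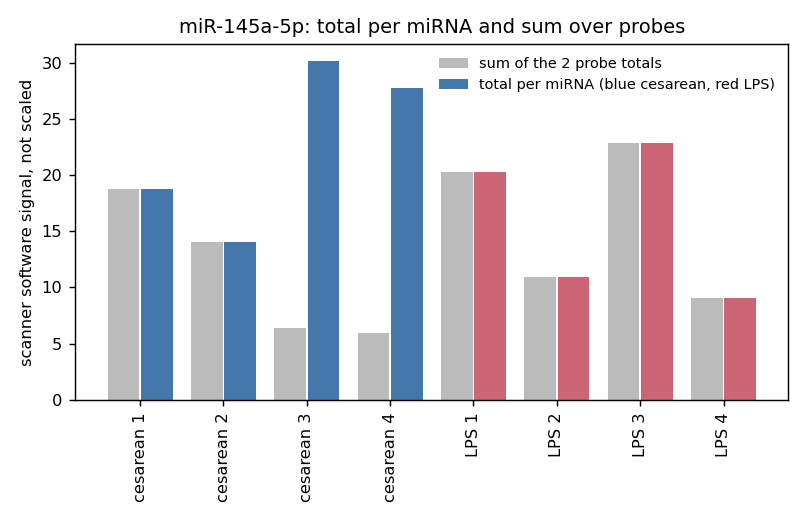
Unscaled scanner software signal of miR-145a-5p (y axis) on each array (x axis), as the sum of its 2 probe totals (grey) and as the total per miRNA (blue cesarean, red LPS). The bars match on 6 arrays, while on cesarean replicates 3 and 4 the total is 4.69 and 4.68 times the sum.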

How the data were processed

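Exosomes were isolated by size exclusion, and Cy3-labelled material was prepared from total RNA, per the labels' protocols. The deposited spot intensity came from Agilent's Feature Extraction software, version 10.7.1.1 per the file headers and 9.1 per the submitters' processing notes, as linear, background-subtracted signal without normalization between arrays. The deposited value table holds log2 values normalized by the authors between arrays, by steps not given in the sources used here, and served as an alternative. Scanner marks of spots well above background are 0 or 1 values deposited with the signals.

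Control spots and spots marked as outliers (2.99% to 3.48% of miRNA spots) were left out; no miRNA spot reached saturation. Each probe counted as well above background if a share of 0.5 of its spots did. Probe means were scaled to the 75th percentile over 618 probes detected on all arrays and floored at 11.7 units. The brightest of a miRNA's probes was used. Tested were miRNAs well above background on at least 3 arrays of either group, with limma 3.58.1 in R 4.3.3 (LPS minus cesarean, two-sided, Benjamini-Hochberg over 470, threshold 0.05), and within-array ratios by exact permutation tests. The fit was tested on simulated data. Between 405 and 554 miRNAs were above background per array, and the number of arrays limits the precision. Named miRNAs are the members, the 5 closest matches of each, and list members. The cluster, lists and tests were chosen with earlier results of these data known. Alternatives covered scaling, background, floor, filter, summary, test, slide column and each array left out. Other tools were Python 3.11.15, with pandas 2.3.3, numpy 2.4.6 and matplotlib 3.10.9.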

Additional observations from a re-analysis of the deposited data

Results flagged for a closer look

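Cesarean replicate 1 stood apart in the log2 ratio of miR-145a-5p to miR-143-3p. Its value of -2.39 lay below the other cesarean arrays (-1.96 to -1.93), a gap of 0.926 of the range of the 4 arrays and past Dixon's 95% critical value for that number. Of the 8 sets of 4 arrays checked this way it was the only one past that value. Chance gives about 1 in 20 for a single set, and so more often for any 1 among 8. The sets are also not independent, since the ratio is formed from levels checked in other sets. The levels of this array were the highest of its group for both miRNAs (6.89 and 4.50), and its overall brightness, at 448 units, the highest of all arrays. The part of brightness in the ratio was not tested.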

How the results depend on the processing

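The difference of miR-143-3p kept its direction and did not pass under any of 26 alternatives (0.39 to 0.75, and 0.42 to 0.84 with 1 array left out, adjusted p from 0.125 to 0.705). For miR-145a-5p this held under 25 of 26 (0.28 to 0.81, and 0.48 to 0.86 with 1 array left out, adjusted p from 0.0736 to 0.614), the exception being the software's total per miRNA (-0.41, adjusted p = 0.678). With normexp background correction, whose offset of 50 compresses dim signals, it was 0.28, and with a floor 2 times as high 0.35. That higher floor lay above every cesarean value of miR-145a-5p, so the difference there could not turn negative. Some further alternatives could not move a direction either. Other filters, an intensity trend in limma and the slide column as a block left the differences at 0.62 and 0.71 and changed only their p-values. Other floors also left miR-143-3p at 0.62, and the lower floor and the mean of detected probes left miR-145a-5p at 0.71. Changing the probe of 1 member left the other as it was. The ratio of miR-145a-5p to miR-143-3p, 0.09, turned sign with normexp (-0.11), the software's total (-1.08) and the higher floor (-0.27). It also did so with the other probe of miR-143-3p (-0.046) or of miR-145a-5p (-0.12). With 1 array left out the ratio ran from -0.022 (without cesarean replicate 1) to 0.13. The higher floor replaced every cesarean value of miR-145a-5p and none of miR-143-3p. The other probe of miR-145a-5p lay at the floor on cesarean replicates 3 and 4. Beyond the total and these effects of the floor, the cause was not tested. The ratios to miR-199a-3p kept their direction under all 17 alternatives, at 1.31 to 1.74 for miR-143-3p and, with the software's total lowest, 0.60 to 1.76 for miR-145a-5p (1.41 to 1.86 and 1.53 to 1.84 with 1 array left out). The count of all miRNAs that passed, 23, was 1 without scaling, 1 with spike-in scaling, 13 with the percentile over all probes, 36 with quantile normalization, 9 with normexp, 6 with software totals, 15 with miRNAs detected on all 8 arrays, 2 with no filter, 52 with array weights, and 1 when slide column was a block; the 1 was a lower call with block, spike-in and no scaling alike. With 1 array left out it ran from 4 (cesarean replicate 2) to 71 (LPS replicate 1), and was 5 or 6 without cesarean replicates 1, 3 or 4 or LPS replicates 2 or 3. Leaving out scaling moved the median over all miRNAs from -0.06 to -0.20. The sum of probe totals and the ratios to miR-199a-3p were chosen after seeing the data. The passenger strands lay at the floor on every array and gave no value. Signal over background limits miR-145a-5p, whose level on cesarean replicates 3 and 4 was 3.99 and 3.80 against a floor of 3.54.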
